A study of Homo sapiens with 10 samples.

Results

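The genes described here form the TGF-beta, activin and BMP pathway: 42 listed genes that code for its ligands, latency proteins, antagonists, receptors, SMAD proteins, intracellular regulators and target genes. They were chosen by name. A gene was read from probe sets annotated to that gene alone, and where several were present, the one with the highest average over the 10 arrays stood for it. Of the 42 genes, 41 had such a probe set, out of 19775 genes in the series, and 40 were tested, out of 14929 genes that reached log2 5 on at least 2 arrays. BMPR1A, a type I BMP receptor gene, was not analysed here. GREM1, which codes for the secreted BMP antagonist gremlin, lay between 3.14 and 3.52 on every array and was not tested.

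RNA was measured in 5 lines of MDA-MB-231, an established human breast cancer cell line, with 2 arrays per line. The parental line was grown in standard culture and is labelled sensitive to SM-164, a Smac mimetic, a drug class that antagonises inhibitor of apoptosis proteins. Each of the other 4 lines was tumour cells isolated from a xenograft in SCID mice that had shrunk under intravenous SM-164 (5 mg/kg on 5 days a week for 2 weeks) and then regrown; T2 and T3 are labelled resistant and T6 and T8 sensitive to the drug. No untreated xenograft is among these groups, so growth in the mouse, the drug, the regrowth and the isolation of cells cannot be told apart in any comparison of tumours with parental cells. Whether replicate arrays came from separate cultures or tumour pieces is not labelled, so p-values over arrays stand for the spread between arrays alone, part or all of which may be technical.

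The TGF-beta family signals through pairs of type I and type II receptor kinases on the cell surface. TGF-beta and activin receptors phosphorylate SMAD2 and SMAD3, BMP receptors phosphorylate another set of SMADs, and both kinds enter the nucleus with SMAD4. Binding proteins outside the cell hold the ligands back or release them, and SMAD6, SMAD7, SKI, SKIL and SMURF proteins damp the signal inside it. In breast cancer the family is known both for growth arrest of epithelial cells and for invasion and bone metastasis of mesenchymal-like cells such as MDA-MB-231.

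All values are log2 expression values, and all differences are differences of log2 values with the standard error (SE) of a limma fit over the 10 arrays. Calls were made where the adjusted p (Benjamini-Hochberg, over all genes tested) was under 0.05. Replicate arrays correlated at 0.997 to 0.999, arrays of different lines at 0.984 to 0.997, and the median over all genes ran from 6.79 to 6.87. The mesenchymal markers VIM, CD44, CAV1 and AXL did not fall under 12.25 on any array, PGR reached at most 4.20 and CDH1 lay between 4.47 and 5.46, while EPCAM (8.13 to 9.25), ERBB2 (8.83 to 9.29) and ESR1 (6.52 to 6.78), which were listed as low in this line, were above log2 5.

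Between the mean of the 4 tumours and parental cells, 26 of the 40 tested pathway genes were called, 11 higher and 15 lower, or 65% of them. Over all genes tested 42.3% were called in that comparison, 25.5% higher and 16.8% lower. The median size of the difference was 0.300 among the pathway genes and 0.177 among all genes. The 6 genes that differed by at least 1 were INHBA, ID2, FST, BMPR1B, ID4 and BMP2, each higher in the tumours, and 2.66% of all genes were called with a difference that large. Each tumour was also set against parental cells on its own. In T2, 24 pathway genes were called, 11 higher and 13 lower, where 33% of all genes were called, 17.5% higher and 15.5% lower. T3 had 25, 11 higher and 14 lower (all genes 37.9%, 22.1% higher and 15.8% lower). T6 had 20, 10 in each direction (34.5%, 20.7% and 13.7%). T8 had 28, 12 higher and 16 lower (43.8%, 28.7% and 15.1%). These comparisons share the 2 parental arrays.

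In each of the 4 tumours BMP2, BMPR1B, FST, ID2, INHBA, TGFB1 and TGFBR2 were called higher than parental cells, 17.5% of the pathway genes tested against 8.87% of all genes. BMP1, BMP4, SMAD3, SMURF1, TGFBI and TGFBR1 were called lower in each, 15% against 5.41%. With the tumour as the replicate, 4 tumours against the 1 parental line, FST alone of the 40 was called (adjusted p = 0.00796, limma on line means), among 195 genes in all. The parental arm of that fit is a single line mean, so its spread comes from the tumours and is assumed to hold for parental cells as well. The adjusted p-values below are those of the fit over arrays unless another fit is named.

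**Figure D1:**
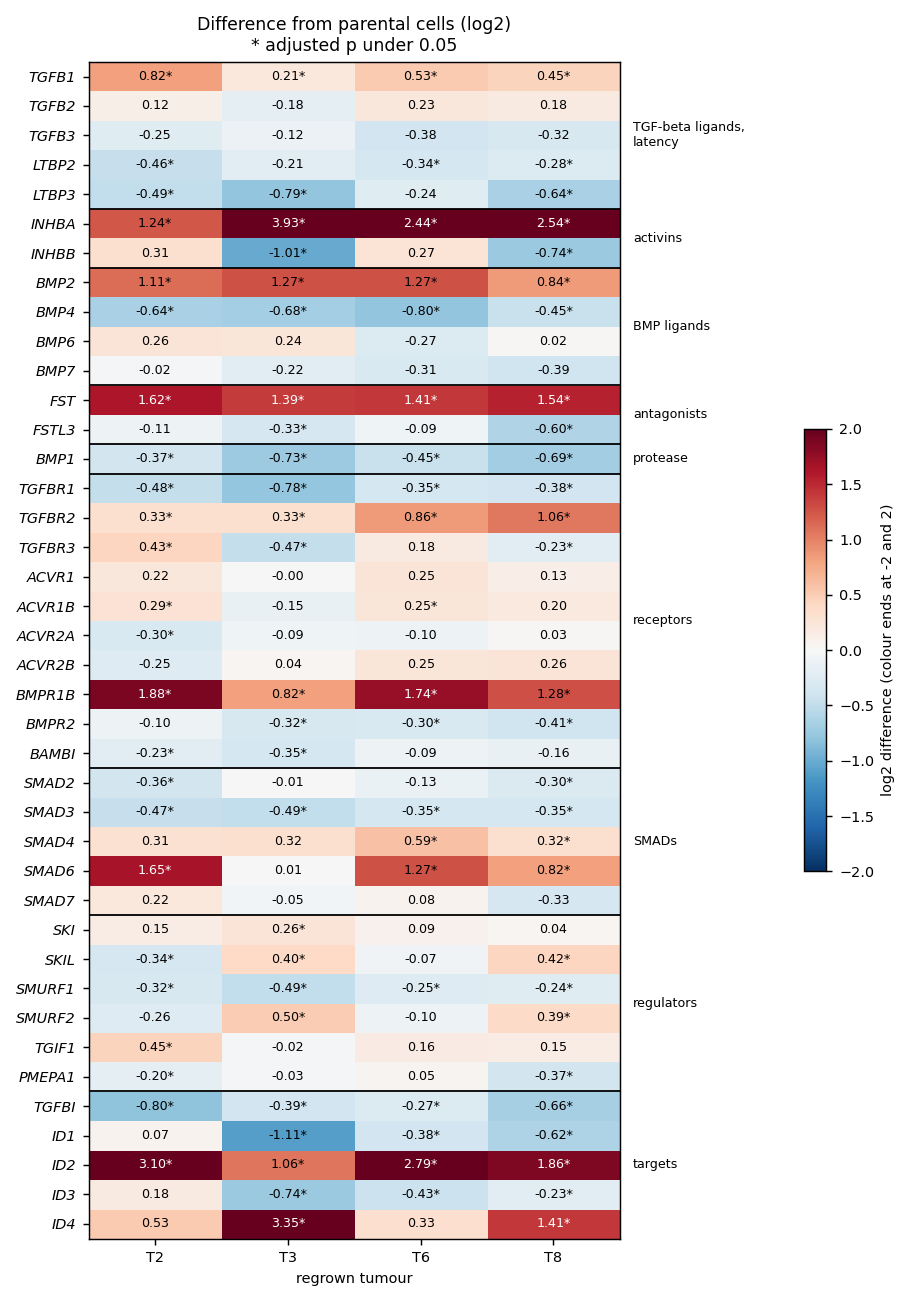
Log2 difference of each tumour (columns) from parental cells for the 40 tested pathway genes (rows, grouped by role); colour stops at 2 either way and an asterisk marks an adjusted p under 0.05 in the fit over arrays. The rows of INHBA, FST, BMP2, BMPR1B and ID2 are higher in all 4 columns, whereas ID4 reaches 3.35 in T3 and 0.33 in T6.

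TGFB1 codes for the TGF-beta 1 ligand (chr19:41330323-41353922, GRCh38.p14). The arrays read 9.85 and 9.79 in parental cells, 10.65 and 10.64 in T2, 9.99 and 10.07 in T3, 10.33 and 10.37 in T6, and 10.28 and 10.26 in T8. Every tumour array lay above both parental arrays, and T2 lay above the other tumours. The tumours averaged 0.50 above parental cells (SE 0.05, adjusted p = 1.58e-06, limma). That value comes from a probe set whose design allows it to read related transcripts; the other TGFB1 probe set, far dimmer at 5.41 to 5.65 by line, gave a difference of -0.04 (adjusted p = 0.811).

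Of the remaining TGF-beta ligand and latency genes, TGFB2 lay between 9.44 and 10.06 and TGFB3 between 5.97 and 6.63 over the 10 arrays, and neither was called (0.09, SE 0.09, and -0.27, SE 0.13). The latent TGF-beta binding proteins keep the ligand in the matrix in an inactive complex. LTBP3 fell by 0.54 on the log2 scale (SE 0.08, adjusted p = 0.000119, limma), from 7.86 in parental cells to 7.07 in T3 and 7.62 in T6. LTBP2 fell by 0.33 (SE 0.08, adjusted p = 0.00456, limma), and each of its tumour arrays lay below both parental arrays; without parental replicate 2 the adjusted p was 0.0652.

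INHBA codes for the activin A subunit (chr7:41685114-41705406) and had the widest range of line means of the pathway, 3.93. Values on the arrays were 6.36 and 6.69 in parental cells, 7.69 and 7.83 in T2, 10.39 and 10.53 in T3, 8.98 and 8.94 in T6, and 9.05 and 9.09 in T8. The tumours did not overlap the parental cells, and T2 and T3, which share the resistant label, stood at the lower and the upper end of the tumours. On average the tumours were higher by 2.54 (SE 0.08, 5.81-fold, adjusted p = 8.93e-12, limma). T3 exceeded T8 by 1.39 (SE 0.10, adjusted p = 6.87e-07, limma), T8 and T6 differed by 0.11 (SE 0.10, adjusted p = 0.576), and T6 exceeded T2 by 1.20 (SE 0.10, adjusted p = 9.11e-06, limma). With the tumour as the replicate the difference from parental cells was not called (adjusted p = 0.217). A second INHBA probe set ran from 5.84 in parental cells to 10.3 in T3 by line and gave the same order except for T6 and T8.

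INHBB, the gene of the activin B subunit, split the tumours in another way. T2 (8.78) and T6 (8.74) lay near the parental mean of 8.46, and T8 (7.72) and T3 (7.45) well below it. T2 and T6 did not differ from parental cells beyond the test (adjusted p = 0.0689 and 0.106, limma), while T3 fell by 1.01 (SE 0.12) and T8 by 0.74 (SE 0.12). For the mean of the tumours the difference was -0.29 (SE 0.10, adjusted p = 0.0275, limma), a call lost without either parental array (adjusted p = 0.129 and 0.0847) and without T6 replicate 1 (0.0569). T8 and T3 did not differ beyond the test (adjusted p = 0.161). So in T3, where INHBA was highest, INHBB was at the low end.

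BMP2 codes for a BMP ligand (chr20:6767686-6780246). Its log2 values were 5.45 and 5.65 in parental cells, 6.69 and 6.63 in T2, 6.68 and 6.96 in T3, 6.83 and 6.80 in T6, and 6.46 and 6.32 in T8. The parental arrays were the lowest, near the level at which a gene entered the tests, and all tumour arrays lay within 6.32 to 6.96. Against parental cells the tumours were higher by 1.12 (SE 0.10, 2.18-fold, adjusted p = 4.09e-07, limma), and with the tumour as the replicate the adjusted p was 0.0535. BMP4, another ligand of the same branch, moved the opposite way. It fell by 0.64 (SE 0.05, adjusted p = 8.32e-08, limma), from a parental mean of 10.9 to tumour means of 10.1 to 10.5, with no overlap.

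BMP6 (5.71 to 6.34) and BMP7 (6.61 to 7.37) were not called between tumours and parental cells. BMP1, despite its name, codes for a protease that cleaves procollagen and the BMP antagonist chordin. BMP1 fell by 0.56 (SE 0.08, adjusted p = 7.1e-05, limma), and all 8 tumour arrays lay at or below 8.19, under both parental arrays (8.39 and 8.43).

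FST codes for follistatin, which binds activins and keeps them from their receptors (chr5:53480629-53487134). The arrays gave log2 values of 11.03 and 11.14 in parental cells, 12.68 and 12.73 in T2, 12.46 and 12.50 in T3, 12.44 and 12.55 in T6, and 12.59 and 12.66 in T8. The tumours lay close together and far above the parental arrays. The tumour mean exceeded the parental one by 1.49 (SE 0.05, 2.81-fold, adjusted p = 8.73e-12, limma), and the other FST probe sets gave 1.65 and 1.73. Neighbouring tumours in the order T2, T8, T6, T3 differed by 0.02 to 0.13, none of them called. FSTL3, a related activin-binding protein gene, went the other way and fell by 0.28 (SE 0.07, adjusted p = 0.00409, limma), with T8 lowest at 8.03 against 8.63 in parental cells.

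**Figure D2:**
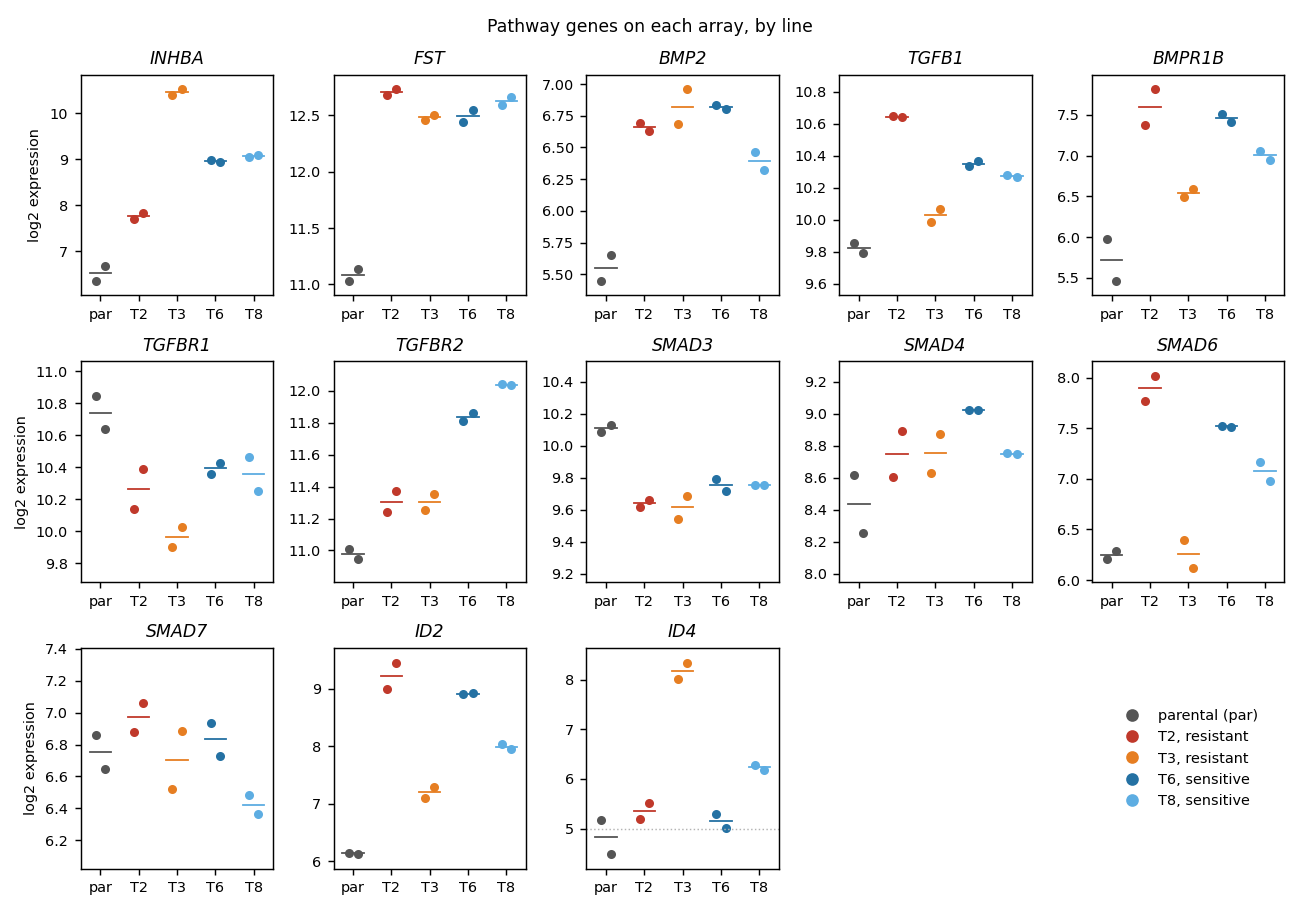
Log2 expression on each array (points, 2 per line) with the line mean (bar) for 13 pathway genes; the dotted line, where it falls within a panel, marks log2 5, the filter on low values, and panel axes differ in range. INHBA rises from 6.52 in parental cells to 10.5 in T3, FST sits near 12.5 in all 4 tumours, and ID4 leaves the level of the filter in T3 and T8.

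Among the receptor genes, 2 of the 10 tested were higher in the tumours and 3 lower, 50% called where 42.3% of all genes were, with a median difference of 0.03 against 0.002 over all genes. BMPR1B codes for a type I BMP receptor (chr4:94757955-95158450). Its log2 values were 5.98 and 5.46 in parental cells, 7.38 and 7.82 in T2, 6.49 and 6.59 in T3, 7.51 and 7.41 in T6, and 7.06 and 6.95 in T8. T2 and T6 were high, T3 was the lowest tumour, and no tumour array reached down to the parental ones. The tumours averaged 1.43 above parental cells (SE 0.13, 2.70-fold, adjusted p = 4.9e-07, limma). T2 exceeded T3 by 1.06 (SE 0.16, adjusted p = 0.000128, limma), and T2 and T6 differed by 0.14 (SE 0.16, adjusted p = 0.636). The other BMPR1B probe sets, near log2 5, gave smaller tumour differences of 0.69 and 0.56. T2 was highest on both, but on the dimmer of them T6 (4.93) and not T3 (5.01) was the lowest tumour.

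The genes of the 2 kinases that together bind TGF-beta moved apart. TGFBR1, the type I receptor gene (chr9:99103647-99154192), read 10.85 and 10.64 in parental cells, 10.14 and 10.39 in T2, 9.90 and 10.02 in T3, 10.36 and 10.43 in T6, and 10.47 and 10.25 in T8. It was highest in parental cells and lowest in T3. The tumours fell by 0.50 (SE 0.08, adjusted p = 0.000108, limma); without the less specific probe sets the difference was -0.28 and was not called (adjusted p = 0.123).

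TGFBR2, the type II receptor gene (chr3:30606356-30694142), read 11.01 and 10.94 in parental cells, 11.24 and 11.37 in T2, 11.26 and 11.35 in T3, 11.81 and 11.86 in T6, and 12.04 and 12.03 in T8. The arrays formed 3 levels without overlap, with parental cells lowest, the resistant tumours between and the sensitive tumours highest. On average the tumours were higher by 0.64 (SE 0.05, 1.56-fold, adjusted p = 1.08e-07, limma), and its second probe set gave 0.72. TGFBR2 was called in each tumour, at 0.33 (SE 0.06) in both T2 and T3, 0.86 in T6 and 1.06 in T8.

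TGFBR3 codes for betaglycan, a co-receptor that presents TGF-beta 2. Its mean over the tumours was -0.02 from parental cells (SE 0.06), yet T2 was higher by 0.43 (SE 0.08, adjusted p = 0.000655, limma) and T3 lower by 0.47 (SE 0.08, adjusted p = 0.00031, limma). Of the other receptor genes, BMPR2 fell by 0.28 (SE 0.07) and BAMBI, the gene of a decoy receptor without a kinase, by 0.21 (SE 0.07), with adjusted p-values of 0.00438 and 0.0201 (limma). Without parental replicate 1 these were 0.0599 and 0.134, and without parental replicate 2 BAMBI stood at 0.0847. ACVR1, ACVR1B, ACVR2A and ACVR2B, which bind activins or BMPs, lay between 7.31 and 9.07 and were not called for the mean of the tumours.

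SMAD3 codes for a carrier of the TGF-beta and activin signal (chr15:67065602-67195169). The arrays read 10.09 and 10.13 in parental cells, 9.62 and 9.66 in T2, 9.54 and 9.69 in T3, 9.79 and 9.72 in T6, and 9.76 and 9.75 in T8. The tumours lay close together below the parental arrays. On average the tumours fell by 0.42 (SE 0.06, adjusted p = 3.12e-05, limma), and the other 3 SMAD3 probe sets gave -0.13, -0.31 and -0.35. SMAD2, which acts beside SMAD3, fell by 0.20 (SE 0.06, adjusted p = 0.013, limma), with T3 at 9.69 level with parental cells at 9.70; the adjusted p was 0.0506 or 0.118 without either parental array.

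SMAD4 codes for the partner of all signal-carrying SMADs (chr18:51030213-51085042). Values on the arrays were 8.62 and 8.25 in parental cells, 8.60 and 8.89 in T2, 8.63 and 8.88 in T3, 9.02 and 9.02 in T6, and 8.75 and 8.75 in T8. T6 stood above the other tumours, and a T2 array overlapped the higher parental array. Against parental cells the tumours were higher by 0.38 (SE 0.10, adjusted p = 0.00518, limma). The call was lost with the mean over its 5 probe sets (0.06, adjusted p = 0.572), without the less specific ones (0.10, adjusted p = 0.391) and without parental replicate 2 (0.20, adjusted p = 0.202).

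SMAD6 and SMAD7 code for inhibitory SMADs, which are themselves induced by the pathway. SMAD6 (chr15:66702236-66782849) read 6.21 and 6.29 in parental cells, 7.77 and 8.02 in T2, 6.40 and 6.12 in T3, 7.53 and 7.51 in T6, and 7.17 and 6.98 in T8. T3 overlapped parental cells, and the other 3 tumours lay clear of them. T2 was higher than parental cells by 1.65 (SE 0.12, 3.13-fold, adjusted p = 1.04e-07, limma), T6 by 1.27, T8 by 0.82 and T3 by 0.01 (SE 0.12, adjusted p = 0.951). The SMAD6 probe set used is of the less specific kind, and its tumour mean differed from parental cells by 0.94. The next brightest, also less specific, gave 0.54 with the tumours in the same order. The remaining SMAD6 probe sets stayed under log2 5 on every array and gave 0.13 and, on the only specific one, -0.17. SMAD7 (chr18:48919853-48950965) read 6.86 and 6.65 in parental cells, 6.88 and 7.06 in T2, 6.52 and 6.88 in T3, 6.93 and 6.73 in T6, and 6.48 and 6.36 in T8. T8 lay lowest, and the arrays of the other lines lay within 6.52 to 7.06. The difference of the tumours from parental cells was -0.02 (SE 0.11, adjusted p = 0.885, limma).

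Of the 6 intracellular regulators, TGIF1 was higher, SMURF1 was lower and 4 were not called. SMURF1, the gene of a ubiquitin ligase that marks receptors and SMADs for degradation, fell by 0.33 (SE 0.06, adjusted p = 0.000502, limma), although its mean over probe sets gave -0.06 (adjusted p = 0.468). SMURF2, its close relative, was higher than parental cells in T3 (0.50, SE 0.09) and T8 (0.39, SE 0.09) and was not called in T2 (-0.26) or T6 (-0.10). SKIL, which codes for the corepressor SnoN, was higher in T3 (0.40, SE 0.12) and T8 (0.42, SE 0.12) and lower in T2 (-0.34, SE 0.12). SKI, a related corepressor gene, stayed between 10.04 and 10.47 on the arrays, and PMEPA1, the gene of a membrane protein that sequesters SMADs, between 9.56 and 9.99. PMEPA1 differed from parental cells by -0.14 (adjusted p = 0.0619, limma) on the probe set used and by -0.78 on another, which read 8.42 in parental cells and 7.49 to 7.78 in the tumours; it gained a call under 4 of 19 alternatives, among them the mean over probe sets (-0.35, adjusted p = 0.000491). TGIF1, another corepressor gene, was higher by 0.18 (SE 0.06, adjusted p = 0.0328, limma), with T2 at 10.2 and parental cells at 9.75, and lost its call under 12 of 19 alternatives, among them leaving out parental replicate 2 (0.11, adjusted p = 0.385).

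TGFBI, a matrix protein gene induced by TGF-beta, fell by 0.53 (SE 0.05, adjusted p = 4.97e-07, limma), and every tumour array (10.17 to 10.73) lay below the parental arrays (10.94 and 11.00). The ID genes code for helix-loop-helix proteins that block differentiation factors, and they are known direct targets of BMP signalling. They did not move together in these cells.

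ID2 (chr2:8682056-8684461) read 6.15 and 6.12 in parental cells, 9.0 and 9.46 in T2, 7.10 and 7.29 in T3, 8.92 and 8.92 in T6, and 8.04 and 7.96 in T8. All tumour arrays were above parental cells, and T2 and T6 were the highest. The tumour mean exceeded the parental one by 2.20 (SE 0.10, 4.60-fold, adjusted p = 2.5e-10, limma), and T2 exceeded T3 by 2.03 (SE 0.12, adjusted p = 1.65e-08, limma). Both ID2 probe sets are of the less specific kind, and the second gave a difference of 1.99.

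ID4 (chr6:19837370-19842197) read 5.17 and 4.48 in parental cells, 5.20 and 5.51 in T2, 8.01 and 8.34 in T3, 5.29 and 5.02 in T6, and 6.29 and 6.18 in T8. It was high in T3 and intermediate in T8, while T6 overlapped parental cells and T2 lay just above them, all near log2 5. T3 was higher than parental cells by 3.35 (SE 0.20, 10.2-fold, adjusted p = 6.66e-09, limma), T8 by 1.41 (SE 0.20), T2 by 0.53 (SE 0.20, adjusted p = 0.0529) and T6 by 0.33 (SE 0.20, adjusted p = 0.214). Another ID4 probe set, annotated as less specific, read 5.36 in parental cells, 5.34 in T2, 6.55 in T3, 5.27 in T6 and 5.17 in T8, and the remaining 3 stayed under log2 5 on every array. On it T3 was again the highest line and T8 did not exceed parental cells, so the level of T8 rests on 1 probe set. The parental level was so near background that the fold of ID4 sets T3 against a barely detected gene.

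ID1 was abundant, between 10.47 and 11.74, and its mean fell from 11.6 in parental cells and 11.7 in T2 to 11.2 in T6, 11.0 in T8 and 10.5 in T3. T3 fell by 1.11 (SE 0.08, adjusted p = 9.12e-08, limma) and T2 differed from parental cells by 0.07 (SE 0.08, adjusted p = 0.618). ID3 had line means of 9.05 in parental cells, 9.23 in T2, 8.82 in T8, 8.62 in T6 and 8.31 in T3. In T3, then, ID1 and ID3 were at their lowest of the 5 lines and ID4 at its highest.

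The promoters of the ID genes and of SMAD6 are shown because these targets diverged between the tumours. They are the 250 bases before the RefSeq transcription start on GRCh38.p14, in the direction of the gene, at chr20:31605039-31605288 (plus strand) for ID1, chr2:8681806-8682055 (plus) for ID2, chr1:23559502-23559751 (minus) for ID3, chr6:19837120-19837369 (plus) for ID4 and chr15:66701986-66702235 (plus) for SMAD6. Capitals mark CAGAC or GTCTG, the core of SMAD3 and SMAD4 sites as read on either strand, and the palindrome GTCTAGAC.
ID1: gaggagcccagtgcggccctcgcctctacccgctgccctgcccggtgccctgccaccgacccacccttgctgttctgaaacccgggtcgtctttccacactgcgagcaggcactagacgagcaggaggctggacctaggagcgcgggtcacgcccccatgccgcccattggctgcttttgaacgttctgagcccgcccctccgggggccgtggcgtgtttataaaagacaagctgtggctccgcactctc
ID2: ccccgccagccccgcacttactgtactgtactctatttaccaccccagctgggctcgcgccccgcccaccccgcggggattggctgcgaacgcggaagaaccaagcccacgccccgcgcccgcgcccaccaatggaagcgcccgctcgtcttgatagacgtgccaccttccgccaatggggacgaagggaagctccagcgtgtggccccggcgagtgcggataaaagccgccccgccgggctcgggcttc
ID3: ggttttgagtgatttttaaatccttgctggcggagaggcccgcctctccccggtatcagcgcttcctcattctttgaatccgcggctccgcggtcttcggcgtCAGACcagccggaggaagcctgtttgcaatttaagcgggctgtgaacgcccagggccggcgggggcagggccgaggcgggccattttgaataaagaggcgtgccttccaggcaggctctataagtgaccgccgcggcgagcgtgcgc
ID4: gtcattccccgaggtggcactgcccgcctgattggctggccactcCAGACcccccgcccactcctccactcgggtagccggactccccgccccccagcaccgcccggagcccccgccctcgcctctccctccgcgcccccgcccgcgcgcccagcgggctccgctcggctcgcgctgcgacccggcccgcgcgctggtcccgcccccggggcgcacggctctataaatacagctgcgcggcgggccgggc
SMAD6: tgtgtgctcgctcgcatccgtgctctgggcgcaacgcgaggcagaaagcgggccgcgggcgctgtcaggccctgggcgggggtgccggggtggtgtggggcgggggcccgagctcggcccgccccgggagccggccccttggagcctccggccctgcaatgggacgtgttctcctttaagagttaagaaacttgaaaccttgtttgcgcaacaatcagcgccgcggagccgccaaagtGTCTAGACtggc

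ID3 and ID4 each held 1 CAGAC, SMAD6 held 1 GTCTAGAC near its start, and ID1 and ID2 held neither in this window. The motif searches covered both strands and did not overlap in these promoters. CAGAC or GTCTG was found in 40.3% of 72 starts of 38 pathway genes and in 38.0% of 35116 promoters. GGCGCC, a GC-rich site described for BMP-regulated SMADs, was found in 23.6% and 16.4%, and in none of the 5 promoters shown. GTCTAGAC was added to the search after the sequences were seen. It was found in 1 of the 72 starts (1.39%), the SMAD6 promoter shown above, and in 64 of 35116 promoters (0.182%). Because that promoter was seen before the search, these shares cannot test for an excess among pathway genes. All 5 were rich in GC, from 62.0% in ID3 to 78.8% in ID4 against a median of 58.0% over all promoters, with 19 to 34 CG steps against a median of 11. Such matches describe letters and not occupied sites.

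The resistant tumours (T2, T3) were then compared with the sensitive ones (T6, T8), the contrast that the labels set up. With the tumour as the replicate, no pathway gene was called among 40 and no gene at all among 14929 (limma); at an unadjusted p under 0.05 there were 2 pathway genes, TGFBR2 and BMP6, and 661 genes in all, 4.43%. The lowest adjusted p of a pathway gene was 0.894. With 2 tumours a side the intervals were wide: INHBA differed by 0.09 with a 95% interval from -2.22 to 2.41, SMAD6 by -0.22 from -1.68 to 1.25, and FST by 0.03 from -0.28 to 0.34.

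The fit over arrays, which describes these 4 tumours only, called 6 pathway genes, 2 higher and 4 lower in the resistant tumours, 15% of those tested. Of all genes 19% were called, 4.76% higher and 14.2% lower. ID4 (1.07, SE 0.14, adjusted p = 0.000164) and BMP6 (0.38, SE 0.08, adjusted p = 0.00767) were higher in the resistant tumours. TGFBR2 (-0.63, SE 0.04, adjusted p = 5.12e-07), ACVR2B (-0.36, SE 0.08, adjusted p = 0.00506), TGFBR1 (-0.27, SE 0.07, adjusted p = 0.0164) and TGFBI (-0.13, SE 0.04, adjusted p = 0.046) were lower. TGFBI lost its call under 15 of 18 alternatives, with differences from -0.14 to -0.06, and TGFBR1 under 7 of 18, among them leaving out T2 replicate 1 (-0.20) and the less specific probe sets (-0.22). The count was 10 without T2 replicate 2, and with quantile normalisation repeated it was 6 higher and 3 lower in place of 2 and 4. Of the 6, 3 were receptor genes, all lower in the resistant tumours, and the remaining 7 tested receptor genes were not called. Over all genes, too, calls were mostly lower, 14.2% against 4.76% higher. For ACVR2B the difference of -0.36 came from 1 probe set, and the others gave -0.01 and 0.12. The ID4 difference came from T3: T2 (5.20 and 5.51) was level with T6 (5.29 and 5.02; difference 0.20, SE 0.20, adjusted p = 0.569) and below T8.

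Arrays of the resistant and sensitive tumours did not overlap for BMP6, which was above (2.5% of pathway genes against 3.97% of all genes), and for ACVR2B, BAMBI, SMAD3, SMURF1 and TGFBR2, which were below (12.5% against 6.44%). TGFBR2 kept its call with the line as a random block (adjusted p = 0.0457), where it was 1 of 4 genes called in all. That fit applies 1 correlation between arrays of a line (0.508) to all genes and still counts arrays in part. It does not stand for the fit with the tumour as the replicate, in which no gene was called. The second TGFBR2 probe set differed by -0.67. ACVR2B and BMP6 lost their calls over arrays with the mean over probe sets (-0.08, adjusted p = 0.277, and 0.20, adjusted p = 0.0699), and TGFBR1 without the less specific ones (-0.22, adjusted p = 0.22).

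Markers of other cell types were read beside the TGFBR2 result; host cells in a xenograft are mouse cells, which human probes read only in part. The summed linear signal of 7 endothelial markers was 889 to 935 in parental cells, 1173 to 1382 in the resistant tumours and 1301 to 2000 in the sensitive ones. In the contrast of resistant with sensitive tumours, 4 of the 7 were lower, ENG at -0.69, CDH5 at -1.27, ROBO4 at -0.38 and TIE1 at -0.41, while PECAM1 (0.34) and VWF (0.29) were higher and KDR was not called. Over all genes, 14.2% were called lower and 4.76% higher in that contrast over arrays. CDH5 (5.23 and 5.10) and TIE1 (5.77 and 5.245) reached log2 5 in T8 alone, so they entered the tests only through a sensitive tumour. VWF reached log2 5 only on a parental array (5.007) and in the resistant tumour T2 (5.084 and 5.071), and did not exceed 4.73 in T6 or T8. Its difference is likewise limited by background. ROBO4 and TIE1 were highest in T8, with means of 10.56 and 5.51. Their means in the other sensitive tumour, T6 (9.88 and 4.80), lay below those of T2 (9.99 and 4.82). ROBO4, at log2 9.12 to 10.61, made up 62.7% to 78.2% of the endothelial sum. No endothelial marker was under log2 5 on every array, although VWF did not exceed 5.08 nor CDH5 5.23. The summed signal of 6 macrophage markers was 1834 to 1928, 798 to 1406 and 1372 to 1871 in parental, resistant and sensitive lines, that of 9 fibroblast and pericyte markers 914 to 937, 866 to 979 and 762 to 838, and that of 4 blood and lymphocyte markers 380 to 430, 360 to 436 and 307 to 341. LAPTM5, at log2 9.16 to 10.69, made up 69.9% to 87.7% of the macrophage sum. PTPRC, PDGFRA, COL3A1, LUM and NKG7 stayed under log2 5 on every array. The part of other cells in these results was not tested, and in RNA from many cells a change in the share of a cell type and a change in RNA per cell cannot be told apart.

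**Figure D3:**
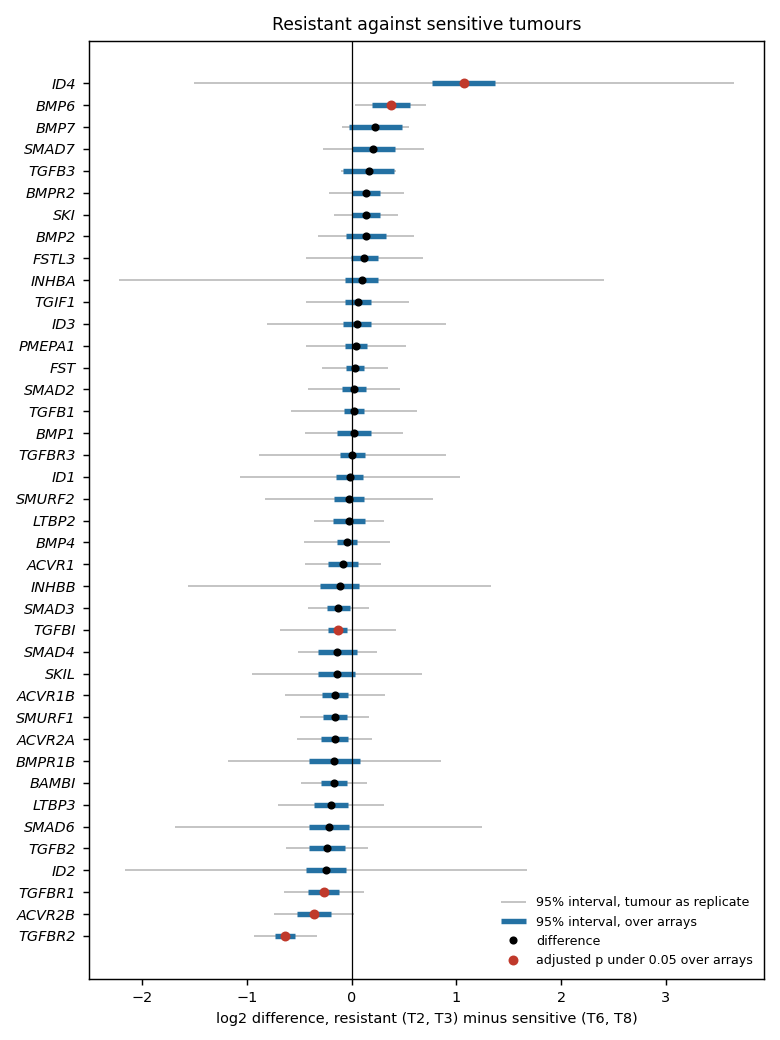
Log2 difference of resistant (T2, T3) minus sensitive tumours (T6, T8) for the 40 tested pathway genes, with the 95% interval over arrays (thick) and with the tumour as the replicate (thin); red points have an adjusted p under 0.05 over arrays. TGFBR2 lies at -0.63 with both intervals below 0, and the thin interval of ID4 runs from -1.51 to 3.65.

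The tumours also differed among themselves. By a moderated F test over the 4 tumours 31 of the 40 genes were called, 77.5% against 41.7% of all genes. The 9 that were not were TGFB3, LTBP2, BMP7, ACVR1, BMPR2, BAMBI, SMAD3, SMAD4 and SKI. T2 and T3, both labelled resistant, differed in 21 genes, 14 higher and 7 lower in T2. Of all genes 30.8% differed there, 13.9% higher and 16.9% lower. T6 and T8, both labelled sensitive, differed in 14, 9 higher and 5 lower in T6 (all genes 15.1%, 4.66% higher and 10.4% lower). T2 and T6, which carry different labels, differed in 11, 6 higher and 5 lower in T2 (9.46%, 3.08% and 6.38%). T3 and T8 differed in 18, 7 higher and 11 lower in T3 (18.4%, 4.66% and 13.8%). T2 and T8 differed in 21, 13 higher and 8 lower in T2 (31.8%, 9.66% and 22.1%), and T3 and T6 in 20, 5 higher and 15 lower in T3 (25%, 11.3% and 13.7%). Leaving out 1 array moved some of these counts: T2 against T6 to 4 without T6 replicate 1 and 5 without T6 replicate 2, T6 against T8 to 9 without T6 replicate 2, and T3 against T8 to 11 without T3 replicate 1 and 9 without either T8 array.

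The line means of 10 pathway genes fell in the order T2, T6, T8, T3: TGFB1, INHBB, BMP1, TGFBR3, ACVR1B, BMPR1B, SMAD6, TGIF1, ID1 and ID2. The reverse order held for INHBA, LTBP2 and SMURF2. Together these were 13 of 40 genes, 32.5%, and 17.1% of all genes tested had one of these orders, as had 19 of 75 other pathway genes (25.3%). The order was picked after the values were seen, so these shares are a description with no test. In each of the 13 genes some neighbouring tumours did not differ beyond their spread. In BMP1, BMPR1B and LTBP2 no neighbouring tumours differed beyond it. In SMAD6, for example, T2 and T6 differed by 0.38 (SE 0.12, adjusted p = 0.0714, limma), T6 and T8 by 0.44 (SE 0.12, adjusted p = 0.0257) and T8 and T3 by 0.81 (SE 0.12, adjusted p = 0.000455). In ID2, T2 and T6 differed by 0.31 (SE 0.12, adjusted p = 0.136), T6 and T8 by 0.92 (SE 0.12, adjusted p = 0.000253) and T8 and T3 by 0.80 (SE 0.12, adjusted p = 0.000534).

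**Figure D4:**
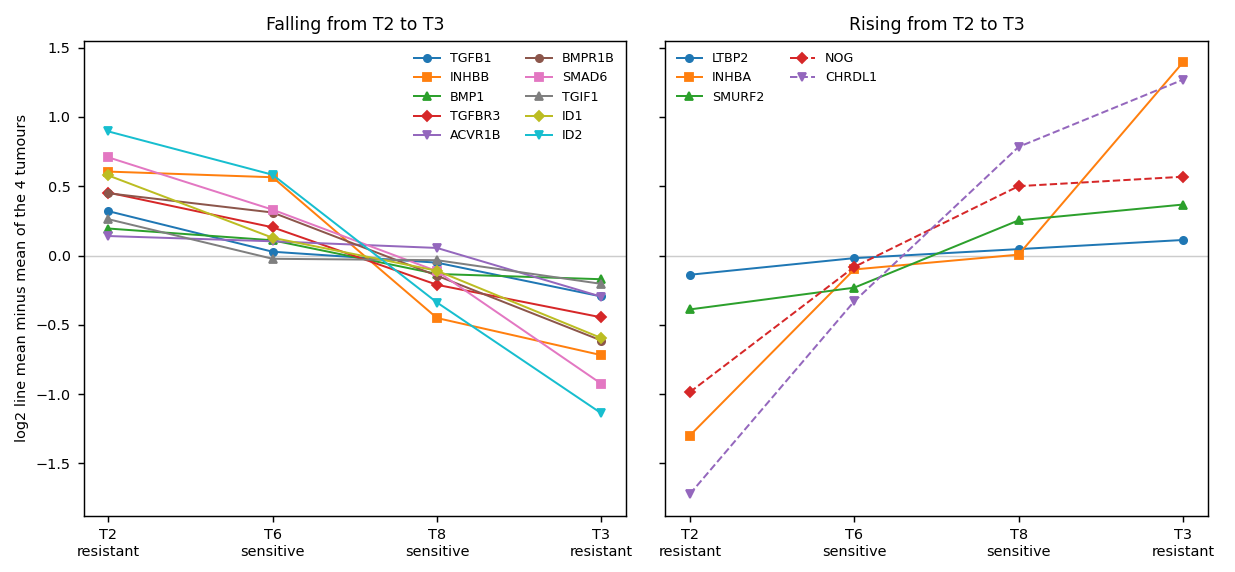
Log2 line mean minus the mean of the 4 tumours, with the tumours in the order T2, T6, T8, T3, for the 10 pathway genes that fall along it (left) and the 3 that rise along it, with NOG and CHRDL1 dashed (right). ID2 falls from 9.23 in T2 to 7.20 in T3, and INHBA rises from 7.76 to 10.5.

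Among 14 tested genes of other antagonists and carriers, 2 had the order T2, T6, T8, T3 (TWSG1 and BMPER), 2 had the reverse (NOG and CHRDL1) and the other 10 had neither, so these antagonists showed no common order. CHRDL1, the gene of a chordin-like BMP antagonist, had a parental mean of 6.94 and tumour means that rose from 5.45 in T2 through 6.84 in T6 and 7.95 in T8 to 8.44 in T3. NOG, which codes for noggin and was chosen after its values were seen, stood at 9.14 in parental cells and at 8.17, 9.08, 9.66 and 9.73 in T2, T6, T8 and T3. Against parental cells NOG was lower in T2 by 0.96 (SE 0.09, adjusted p = 1.38e-06, limma), higher in T3 by 0.59 (SE 0.09) and in T8 by 0.52 (SE 0.09), and not called in T6 (-0.06). CHRDL1 differed from parental cells by -1.49 in T2, 1.5 in T3, 1.02 in T8 and -0.10 in T6 (SE 0.11 each), and T6 was not called.

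A wider list of 98 other genes of the family was counted beside these. Of 75 tested, 32 were higher and 12 lower in the tumours than in parental cells, 58.7% called, with a median difference of 0.17. Over all genes 42.3% were called, 25.5% higher and 16.8% lower, with a median difference of 0.002. Among other ligand genes (10 tested, 3 higher, 1 lower), GDF15 was higher by 1.29 (SE 0.07), GDF11 by 0.60 and BMP8B by 0.50, and GDF5 was lower (-0.94, SE 0.10). Among antagonists and carriers (14 tested, 4 higher, 5 lower), LTBP1, which holds latent TGF-beta in the matrix, was higher by 0.94 (SE 0.07), BMPER by 0.67 and CHRDL1 by 0.23, whereas SOST (-0.70), NRROS (-0.52) and LRRC32 (-0.36) were lower. SOST reached log2 5 on the parental arrays alone (5.065 and 5.131), with every tumour array below 5. It entered the tests only through the line where it was high, so its difference is limited by background.

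Of the 7 other receptors and co-receptors tested, ENG, the gene of endoglin, was higher by 1.0 (SE 0.10), RGMB by 0.90 and NEO1 by 0.31, and ITGAV was lower (-0.26). Of 19 other intracellular genes 10 were higher, led by SMAD9 (0.60), MAP3K7 (0.35) and LEMD3 (0.35), and 2 were lower, LDLRAD4 (-0.41) and ZFYVE9 (-0.34), 63.2% called where 42.3% of all genes were.

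Of the other known TGF-beta targets, 11 of 19 were higher and 2 lower, 68.4% called where 42.3% of all genes were, with a median difference of 0.29 against 0.002 over all genes. TAGLN, a smooth muscle actin-binding protein gene, read 7.51 and 7.56 in parental cells, 10.91 and 11.05 in T2, 8.87 and 8.79 in T3, 10.72 and 10.81 in T6, and 9.92 and 9.95 in T8. The tumours lay far above parental cells, and T3 was the lowest of them. The tumours averaged 2.59 above parental cells (SE 0.06, adjusted p = 3.22e-13, limma). EDN1, the endothelin 1 gene, was higher by 2.41 (SE 0.07) and IL11, a cytokine gene tied to bone metastasis, by 1.38 (SE 0.05). SNAI2, the gene of the transcription factor Slug, was lower (-1.16, SE 0.07), as was CDKN1A (-0.30, SE 0.05). Of 6 other BMP targets, HEY1 was higher by 0.90 (SE 0.08), RUNX2 was lower (-0.52, SE 0.09) and 4 were not called. In the contrast of resistant with sensitive tumours over arrays, 6 of the 75 were higher and 16 lower, or 29.3%, where 19% of all genes were called, 4.76% higher and 14.2% lower.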

How the data were processed

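Total RNA from 10 samples, 5 lines with 2 arrays each, was labelled from 5 ug and read on 3' expression arrays. The authors deposited log2 expression values for 54675 probe sets, and the tools listed per the submitters' processing notes are affy, RMA and limma, without versions. RMA subtracts background, equalises the distributions of arrays and summarises probes, which compresses differences near background. Precision is limited by the number of arrays and by how far a signal stands above background. Probe sets were named through the supplied platform annotation: 41091 carried 1 gene symbol, 1801 several, 11721 none and 62 were controls. Of the 41091, 41037 had an Entrez identifier found in RefSeq and took the symbol given there, whether or not it differed. Of the pathway genes, 9 had 1 probe set and 32 several.

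Genes at log2 5 or more on at least 2 arrays were tested with limma 3.58.1 in R 4.3.3 (lmFit, eBayes with a trend, Benjamini-Hochberg over 14929 genes), with 1 coefficient per line over 10 arrays (5 residual degrees of freedom). The resistant against sensitive contrast was also fitted on line means, with the tumour as the replicate (2 residual degrees of freedom). The fits of tumours against parental cells over arrays and of resistant against sensitive tumours on line means were also run on simulated arrays. In the simulation of tumours against parental cells the tumours did not differ among themselves, unlike those measured here. It therefore does not show how that fit behaves where tumours differ. Promoters came from RefSeq on GRCh38.p14. The genes and gene lists were chosen with earlier results of these data known. Values on every array are given for genes that differed by at least 1 from parental cells or by at least 0.5 between resistant and sensitive tumours over arrays, for the 6 with the widest range of line means, and for TGFB1, TGFBR1, TGFBR2, SMAD3, SMAD4 and SMAD7; of the wider lists, up to 3 called genes per direction were named. Alternatives changed the filter, the normalisation, the probe set, the trend, the block and the arrays included.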

Additional observations from a re-analysis of the deposited data

Results flagged for a closer look

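SMAD4 stood out in T6. The T6 mean of 9.02 lay above the other 3 tumours, which were at 8.75 each, with a gap that took up 0.982 of the range, past the 95% limit of Dixon's test for 4 values. In the fit over arrays T6 exceeded the next tumour, T3, by 0.27 (SE 0.12, adjusted p = 0.13, limma), and neither that difference nor any difference among the 4 tumours (moderated F, adjusted p = 0.177) was called. Of 40 genes checked in this way SMAD4 was the one past it, and chance passes about 1 in 20 groups. The SMAD4 probe set used is of the less specific kind. On the next brightest, a specific one, T6 (7.40) lay near T2 (7.37), T3 (7.295) and T8 (7.23) and did not stand apart.

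TGFBR3 changed in opposite directions in the tumours. T2 exceeded T3 by 0.902 (SE 0.08, adjusted p = 7.23e-07, limma), being 0.433 above parental cells where T3 was at -0.469. T2 exceeded T8 by 0.666 (adjusted p = 2.1e-05, limma), T8 being at -0.234. The second TGFBR3 probe set ran from 8.13 in T2 to 7.20 in T3 and 7.36 in T8.

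SKIL did the reverse. T2 differed from T3 by -0.745 (SE 0.12, adjusted p = 0.000183, limma), being at -0.341 from parental cells where T3 was at 0.404. T2 differed from T8 by -0.763 (adjusted p = 0.000201, limma), T8 being at 0.422.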

How the results depend on the processing

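The 26 pathway genes called between tumours and parental cells became 17 without the less specific probe sets, which left fewer genes to test, and 1 with line means and the tumour as the replicate; leaving out 1 array gave 20 to 27. Apart from the fit on line means, 16 of the 26 kept their call under every alternative in which they were tested. Of these, BMP4, FSTL3, SMAD6, ID1, ID2 and ID3 were not tested without the less specific probe sets, so they did not face that alternative. TGFB1 turned to -0.041 without the less specific probe sets, and the other 9 lost their call under at least 1. Of the 14 not called, 5 gained one. Without the less specific probe sets the counts were 13 for T6 against parental cells, 11 for T2 against T3, 8 for T6 against T8, 5 for T2 against T6, 9 for T3 against T8 and 13 for T3 against T6. The mean over probe sets gave 8 for T6 against T8 and 7 for T2 against T6. With the tumour as the replicate no pathway gene was called between resistant and sensitive tumours, also without any 1 array, and 1 was called with the line as a random block (correlation 0.508), out of 4 genes in all. The random block still counts arrays in part, so it does not stand for the tumour as the replicate. Leaving out 1 array gave 21 to 25 calls for T2, 22 to 26 for T3, 14 to 21 for T6 and 21 to 29 for T8 against parental cells, 4 to 10 for resistant against sensitive over arrays, 16 to 22 for T2 against T3, 9 to 16 for T6 against T8, 4 to 11 for T2 against T6, 9 to 20 for T3 against T8, 17 to 21 for T2 against T8 and 14 to 23 for T3 against T6.

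Counts over all genes moved as well. The 6314 genes called between tumours and parental cells became 4099 without parental replicate 2 and 195 with line means. Leaving out 1 array took T6 against parental cells from 5149 to as few as 3255, resistant against sensitive over arrays from 2837 to 1389, T6 against T8 from 2253 to 940, T2 against T6 from 1412 to 428, T3 against T8 from 2750 to 1234, T2 against T8 from 4743 to 2922 and T3 against T6 from 3730 to 2196. T6 against T8 gave 1492 without the less specific probe sets, and T2 against T6 gave 886 without the trend. With the replicate block the count for tumours against parental cells stayed at 26 and no count of pathway genes moved by over 1.5 times. The deviations of same-numbered arrays correlated at -0.387 to 0.502 and over 0.1 in 4 of 10 pairs of lines. Arrays of some lines thus deviated together, and whether arrays of different lines share a technical component was not tested. The causes of these shifts were not tested. Genes near log2 5, such as ID4 and BMP2 in parental cells, are limited by background.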
